A study of Mus musculus with 4 samples.

Results

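The 38 genes described here are interferon-stimulated genes, a set listed by name and read from a table of gene expression in mouse neutrophils. The set was chosen with earlier results of these data known. All 38 were listed and tested, among 12634 tested genes of 23284 in the table. Neutrophils were sorted from mouse bone marrow as mature cells, gated for strong Gr1 and 7/4 staining and large side scatter. The study compared 2 WT samples with 2 Srf KO samples, in which Srf, the gene for serum response factor, is knocked out. Whether the 2 samples of a genotype came from separate mice is not stated, so the p-values may measure technical spread. The driver and timing of the deletion, any agent given to the mice, their strain and their age are not given in the sources used here. Expression is given in FPKM (fragments per kilobase of transcript, scaled to library size), as 1 pooled value for WT and 1 for Srf KO, so depth and the spread between samples are unknown.

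Type I and type II interferons bind receptors at the cell surface, whose Janus kinases phosphorylate STAT proteins. A complex of STAT proteins with IRF9 binds interferon-stimulated response elements (ISRE) in promoters, and STAT dimers bind gamma-activated sites (GAS). The induced genes encode proteins that bind viral RNA, sense nucleic acids, restrict viral entry or release, and feed back on the pathway. Neutrophils carry interferon receptors and respond to both types of interferon.

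Promoters are shown first, because the ISRE is the element bound by the complex of STAT proteins with IRF9. Of the 38 genes, 28 had a promoter in the RefSeq table (GRCm38.p6), which spans 250 bases before the start to 50 bases after it. Rtp4, Zbp1, Usp18, Mx1, Mx2, Parp9, Parp14, Oas2, Ifi27l2a and Dhx58 were not matched. The ISRE core letters searched were GAAANNGAAA, on both strands, with overlapping matches counted separately. They occurred in 12 of the 28 genes (42.9%), against 1079 of 27025 genes with a promoter in the table (3.99%) and 3.44% of all promoters. The 250 bases before the start are given here for 5 genes that were higher in Srf KO and hold a match, and for 2 that hold a match and were not called different. Each runs 5′ to 3′ in the direction of the gene, and capitals mark the matches, which read as their reverse complement where they lie on the other strand.
Ifit1 (chr19:34640639-34640888, + strand): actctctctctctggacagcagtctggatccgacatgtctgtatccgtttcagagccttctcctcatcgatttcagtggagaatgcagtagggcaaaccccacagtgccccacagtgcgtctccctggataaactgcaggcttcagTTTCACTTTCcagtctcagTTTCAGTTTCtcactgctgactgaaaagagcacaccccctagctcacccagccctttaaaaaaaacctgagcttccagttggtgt
Ifit3 (chr19:34583279-34583528, + strand): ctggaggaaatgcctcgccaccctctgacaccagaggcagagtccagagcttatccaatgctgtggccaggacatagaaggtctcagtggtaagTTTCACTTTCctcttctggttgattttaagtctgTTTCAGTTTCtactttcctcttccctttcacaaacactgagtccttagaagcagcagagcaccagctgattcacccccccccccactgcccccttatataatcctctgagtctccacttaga
Isg15 (chr4:156200819-156201068, - strand): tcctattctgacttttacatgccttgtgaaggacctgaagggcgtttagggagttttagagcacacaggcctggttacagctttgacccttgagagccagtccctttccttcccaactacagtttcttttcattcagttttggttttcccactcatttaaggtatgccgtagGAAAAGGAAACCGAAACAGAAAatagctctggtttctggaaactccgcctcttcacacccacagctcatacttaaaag
Bst2 (chr8:71537473-71537722, - strand): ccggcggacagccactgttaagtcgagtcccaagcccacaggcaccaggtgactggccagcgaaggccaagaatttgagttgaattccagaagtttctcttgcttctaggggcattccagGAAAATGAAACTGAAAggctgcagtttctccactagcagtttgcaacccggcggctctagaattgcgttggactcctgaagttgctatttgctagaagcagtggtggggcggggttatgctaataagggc
Oas1a (chr5:120907526-120907775, - strand): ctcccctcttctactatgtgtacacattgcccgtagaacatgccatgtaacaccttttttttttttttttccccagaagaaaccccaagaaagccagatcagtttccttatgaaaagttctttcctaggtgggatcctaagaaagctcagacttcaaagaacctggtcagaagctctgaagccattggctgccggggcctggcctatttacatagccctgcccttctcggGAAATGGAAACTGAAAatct
Oas3 (chr5:120777660-120777909, - strand): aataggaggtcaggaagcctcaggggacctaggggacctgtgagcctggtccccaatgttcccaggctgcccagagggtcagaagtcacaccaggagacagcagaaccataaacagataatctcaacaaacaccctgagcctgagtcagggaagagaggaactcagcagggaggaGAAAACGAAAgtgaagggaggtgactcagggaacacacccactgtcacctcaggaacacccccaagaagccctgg
Rsad2 (chr12:26456453-26456702, - strand): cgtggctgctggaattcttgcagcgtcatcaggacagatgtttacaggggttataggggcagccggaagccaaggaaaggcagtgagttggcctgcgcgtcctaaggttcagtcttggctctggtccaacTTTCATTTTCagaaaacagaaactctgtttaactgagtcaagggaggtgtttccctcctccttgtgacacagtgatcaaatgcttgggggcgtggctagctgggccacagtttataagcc

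A match is a description of the letters and not a measured binding site. Ifit1 and Ifit3 each hold a pair of matches on the strand opposite the gene, whereas Isg15 holds 3 overlapping matches on its own strand. Bst2 and Oas1a each hold 2 overlapping matches. Counted from the start, with bases before it negative, the matches begin at -104 and -85 in Ifit1, at -130 and -124 in Bst2, and at -20 and -14 in Oas1a. The Bst2 start in RefSeq lies 35 bases from the one in the expression table.

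**Figure D1:**
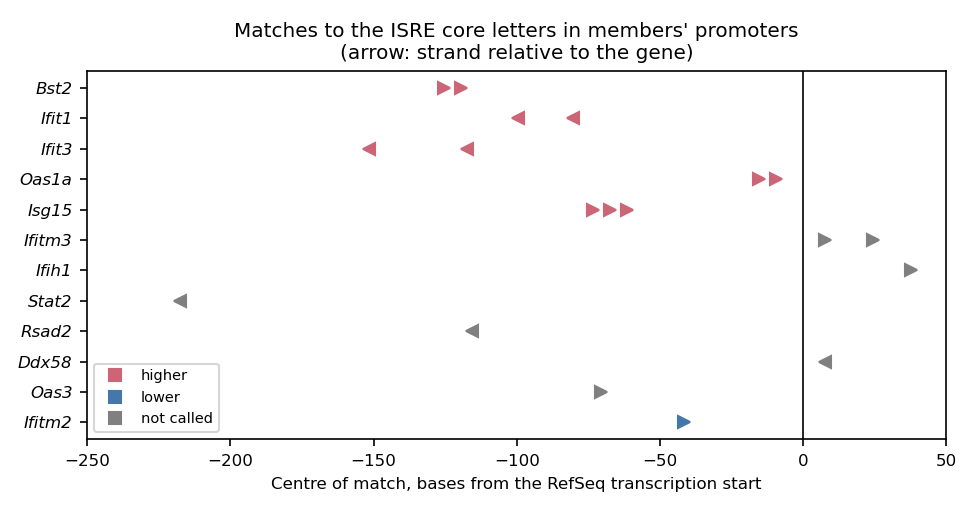
Position of each ISRE core match in the promoters of the 12 genes that hold one, in bases from the RefSeq start on the x axis, with genes ordered by their log2 fold. Arrows point along the matched strand relative to the gene, and colour gives the call in Srf KO. All 5 genes called higher hold 2 or more matches, as does 1 of the other 7 genes, Ifitm3, a count made after the values were seen.

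In Srf KO, 16 of the 38 genes were called higher (42.1%) and 2 were called lower (5.26%), while 20 were not called. A call is an adjusted p of at most 0.05 in the authors' test over all tested genes. Of all 12634 tested genes, 35.5% were called, 17.7% higher and 17.8% lower. The members' share called higher is above this background and their share called lower is below it. The members were chosen with earlier results of these data known, so these shares describe the set and are no test of it. At 5 FPKM or more in either genotype, 15 of 37 members were higher and 3 lower, against 16.2% and 26.45% of genes. A rise of at least 2-fold was called for 9 members, against 7.16% of tested genes, and a fall of at least 2-fold for 0, against 6.45%. The median log2 fold (Srf KO over WT) was 0.26 over the members and 0.08 over all tested genes. The members that rose had log2 folds from 0.46 to 3.12, and those not called lay between -0.43 and 0.40. Errors given as ± are standard errors implied by the authors' statistic, and they ran from 0.18 to 0.31 over the members. Changes differed between role groups in count and size, but no difference between groups or between genes was tested.

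**Figure D2:**
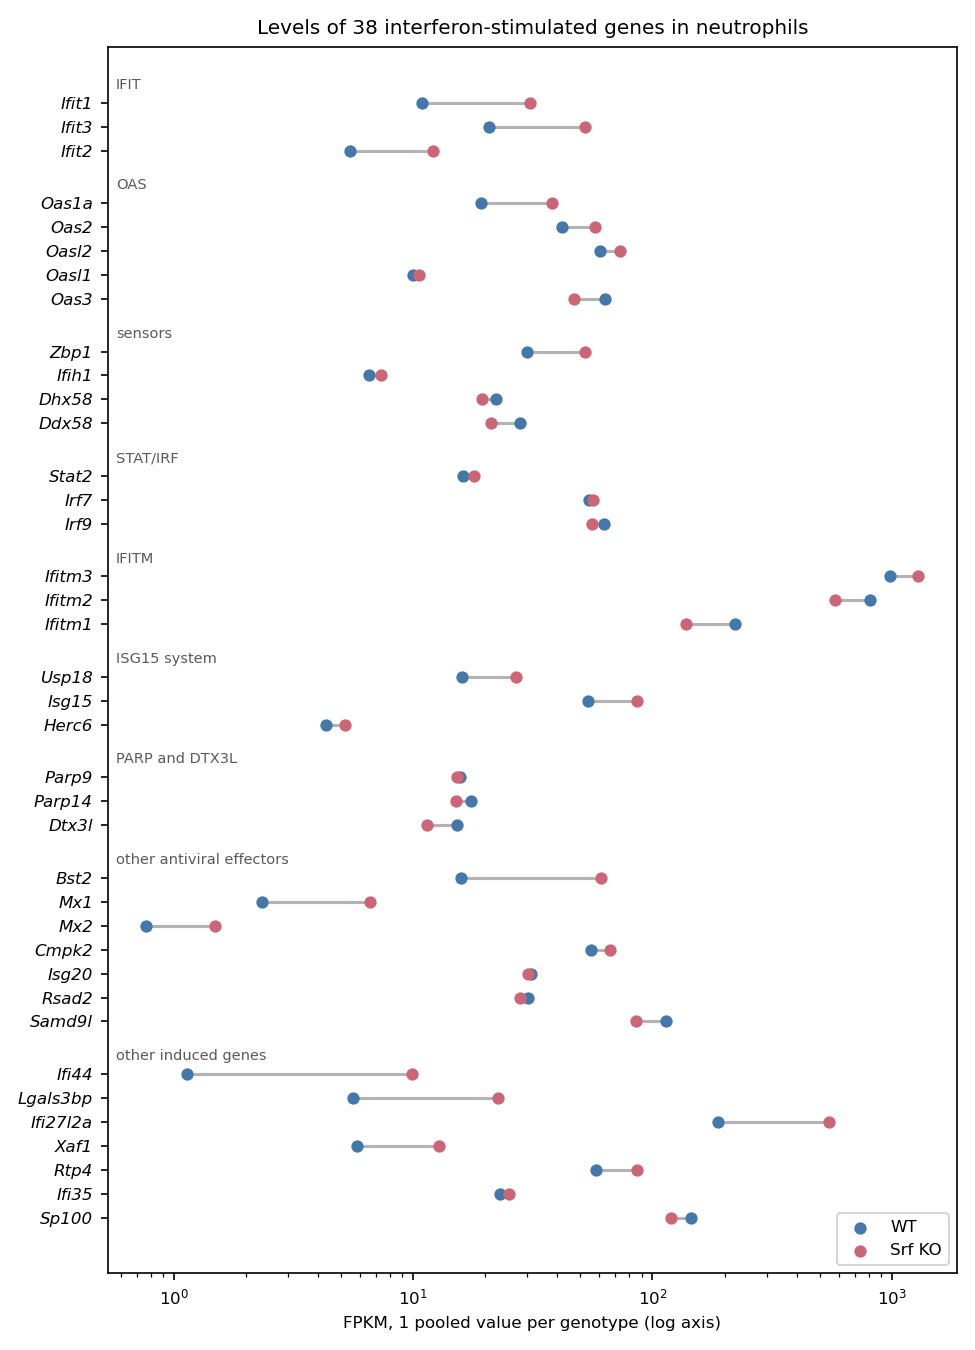
FPKM of each of the 38 genes in WT and in Srf KO on a log axis, grouped by role, with 1 pooled value per genotype and therefore no error bars. Levels ran from 0.767 FPKM (Mx2, WT) to 1291 FPKM (Ifitm3, Srf KO), and the widest gap is that of Ifi44.

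The purity of the sort and the genotype were read from the same table. Srf itself had 13.7 FPKM in WT samples against 0.439 FPKM in Srf KO, a log2 fold of -4.97 ± 0.27. Neutrophil markers summed to 42860 FPKM in WT against 30943 FPKM in Srf KO, led by Retnlg and Lcn2, and 6 of 9 tested markers were called lower and 0 higher. Camp, Ltf, Ngp, S100a8 and S100a9 were not tested because of too many reads. Markers of other cells were far below this in sum but were often called higher in Srf KO. T and NK cell markers, led by Nkg7 and Cd3d, summed to 61.4 FPKM in WT against 152 FPKM in Srf KO, with 20 of 22 called higher. Monocyte and macrophage markers, led by Slc40a1 and Csf1r, summed to 313 and 324 FPKM, with 14 of 17 called higher and 3 lower. Slc40a1 and Csf1r are among the 3 lower, and the 14 called higher summed to 85.0 and 190 FPKM. Plasmacytoid dendritic cell markers, led by Pld4 and Ly6d, summed to 89.5 and 115 FPKM, with 6 of 12 called higher. Conventional dendritic cell markers, led by Cd74 and H2-Aa, summed to 175 and 324 FPKM, with 5 of 12 higher and 1 lower. B cell markers, led by Cd79b and Igj, summed to 173 and 295 FPKM, with 8 of 15 higher. Erythroid markers, led by Hbb-b2 and Hba-a2, summed to 180 and 286 FPKM, with 13 of 16 higher. Megakaryocyte and platelet markers, led by Nfe2 and Plek, summed to 637 and 454 FPKM, with 10 of 20 higher and 3 lower, and Gp6 was listed at 0 in WT. Plek is among the 3 lower, and the 10 called higher, Pf4 (2.68 and 39.2 FPKM) most abundant among them, summed to 5.70 and 50.6 FPKM. The 7 not called summed to 292 and 239 FPKM. Eosinophil, basophil and mast cell markers, led by Hdc and Prg2, summed to 403 and 376 FPKM, with 10 of 13 higher and 1, Hdc, lower. The 10 called higher summed to 85.5 and 185 FPKM. These sums by call, and Pf4, were chosen after the values were seen. A sum over markers called higher rises by selection, so it does not measure the amount of a cell type. No other tested marker was at 0 in WT. Xist had 0.0154 FPKM in WT against 4.92 FPKM in Srf KO, and all 4 Y-linked genes examined were lower in Srf KO (Ddx3y, 13.5 and 4.23 FPKM), so sex-linked transcripts differed as well, and sex and genotype cannot be told apart. The part of these differences in the changes of interferon-stimulated genes was not tested, and in bulk RNA fewer cells of a type and less RNA per cell cannot be told apart.

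The 3 IFIT genes, which encode RNA-binding proteins that block translation of viral messages, all rose in Srf KO, with a median log2 fold of 1.33. Ifit1 (chr19:34640889-34650009, 2 exons) went from 10.9 FPKM in WT to 30.7 FPKM in Srf KO, a log2 fold of 1.49 ± 0.20. Ifit2 went from 5.44 to 12.1 FPKM, a log2 fold of 1.15 ± 0.21. Ifit3 went from 20.8 to 52.4 FPKM, a log2 fold of 1.33 ± 0.19. The genes are neighbours in 99.3 kb of chromosome 19 on the + strand. Adjusted p-values in the authors' deposited table were 3.93e-12 for Ifit1, 5.05e-07 for Ifit2 and 3.29e-10 for Ifit3. Ifit3 has a near-identical neighbouring copy, so reads may be split between them. Ifit1 and Ifit3 carry the paired ISRE letters shown above, and neither of the 2 promoter windows of Ifit2 holds a match.

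The OAS genes encode enzymes that sense double-stranded RNA and make oligoadenylates that activate RNase L, and related proteins without that activity. Of 5 members, 2 rose and 3 were not called, with a median log2 fold of 0.28. Oas1a (chr5:120896257-120907525, - strand, 7 exons) rose from 19.3 to 38.2 FPKM, a log2 fold of 0.98 ± 0.20. Oas2 rose from 41.8 to 57.5 FPKM, a log2 fold of 0.46 ± 0.19, and this call was lost when folds were centred on the median of all genes (adjusted p of 0.0959). Oas3, its neighbour within 47.3 kb, had 63.3 FPKM in WT against 46.9 FPKM in Srf KO, a log2 fold of -0.43 ± 0.18. Oas2 and Oas3 thus lay on opposite sides of WT. Adjusted p-values in the authors' deposited table were 7.71e-06 for Oas1a, 0.0405 for Oas2 and 0.0509 for Oas3, just past the threshold. The unadjusted 95% interval for Oas3 ran from -0.79 to -0.07, and centring the folds brought it to a log2 fold of -0.51 and an adjusted p of 0.0191. With folds adjusted for transcript length, Oas3 had a log2 fold of -0.30 and an adjusted p of 0.209. Oasl1, which restrains translation of Irf7, was at 10 and 10.6 FPKM (log2 fold 0.08 ± 0.21), and Oasl2 at 60.2 and 72.9 FPKM (0.28 ± 0.18). The Oas1 genes are close paralogs, and counts may be split between them. Oas1g, an Oas1 paralog outside the 38 genes, rose from 7.65 to 22.5 FPKM, a log2 fold of 1.56 ± 0.21. The paralogs Oas1b and Oas1c were not called, with log2 folds of 0.35 ± 0.22 and 0.007 ± 0.23.

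Among 4 sensors of foreign nucleic acid, only Zbp1 was called, and the median log2 fold was -0.02. Zbp1, which binds left-handed double helices and can start necroptosis, rose from 29.9 to 52.1 FPKM, a log2 fold of 0.80 ± 0.27, with an adjusted p of 0.0116 in the authors' deposited table. The call was lost with folds adjusted for transcript length (log2 fold 0.45, adjusted p of 0.198). Ddx58 encodes the RNA sensor RIG-I and stood at 27.9 and 21.2 FPKM, a log2 fold of -0.40 ± 0.18. Its adjusted p was 0.0762 in the authors' deposited table and 0.0308 with centred folds. With the length adjustment Ddx58 had a log2 fold of -0.36 and an adjusted p of 0.120. Ifih1, which encodes the RNA sensor MDA5, had 6.52 and 7.34 FPKM, a log2 fold of 0.17 ± 0.19. Dhx58, which encodes their regulator LGP2, had 22.2 and 19.3 FPKM, a log2 fold of -0.20 ± 0.19. The RIG-I-like genes therefore lay within 0.40 of WT on the log2 scale, on both sides of it.

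None of the 3 STAT and IRF genes was called, with a median log2 fold of 0.06 that became -0.02 with centred folds. Stat2, a subunit of the ISRE-binding complex, had 16.2 and 17.9 FPKM, a log2 fold of 0.15 with a 95% interval from -0.22 to 0.51. Irf9, its DNA-binding subunit, had 63.0 and 55.9 FPKM, a log2 fold of -0.17 with an interval from -0.56 to 0.22. Irf7, which drives interferon alpha genes, had 54.3 and 56.6 FPKM, a log2 fold of 0.06 with an interval from -0.33 to 0.45. Each interval includes 0, and each leaves out a 2-fold change.

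The IFITM genes encode small membrane proteins that restrict viral entry, and they are the only 1 of the 9 role groups with members called lower in the authors' test. Ifitm1 fell from 220 to 138 FPKM, a log2 fold of -0.68 ± 0.21. Ifitm2 fell from 813 to 581 FPKM, a log2 fold of -0.49 ± 0.18. Ifitm3 was at 981 FPKM in WT against 1291 FPKM in Srf KO, a log2 fold of 0.40 ± 0.19. Adjusted p-values in the authors' deposited table were 0.00552 for Ifitm1, 0.0272 for Ifitm2 and 0.0853 for Ifitm3. These are the 3 genes of the set with the highest WT levels, and they lie within 55.9 kb of chromosome 7 (chr7:140954839-141010744). At an adjusted p of 0.01 only Ifitm1 remained called lower. The IFITM genes resemble each other in sequence, so their reads may be partly exchanged.

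The ISG15 system had 2 of 3 members called higher, with a median log2 fold of 0.67. Isg15, a ubiquitin-like protein that is joined to other proteins, rose from 54.0 to 85.9 FPKM, a log2 fold of 0.67 ± 0.20. Usp18, which removes ISG15 and damps signalling at the type I receptor, rose from 16 to 27.0 FPKM, a log2 fold of 0.76 ± 0.20. Herc6, a ligase for ISG15 in mice, had 4.33 and 5.19 FPKM, a log2 fold of 0.26 ± 0.21. Adjusted p-values in the authors' deposited table were 0.00368 for Isg15, 0.00112 for Usp18 and 0.338 for Herc6. Isg15 lost its call when folds were adjusted for transcript length (log2 fold 0.31, adjusted p of 0.221).

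None of Parp9, Parp14 and Dtx3l was called, and their median log2 fold was -0.21. Parp14, an ADP-ribosyltransferase, had 17.4 and 15.1 FPKM, a log2 fold of -0.21 ± 0.18. Dtx3l, a ubiquitin ligase, had 15.3 and 11.4 FPKM (log2 fold -0.42 ± 0.25), and its partner Parp9 had 15.8 and 15.2 FPKM (-0.05 ± 0.28). Parp9 and Dtx3l are given the same locus (chr16:35926515-35972621) on opposite strands, and the library kit does not keep the strand, so their reads cannot be fully told apart.

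Of 7 other antiviral effectors, 3 rose and 4 were not called. Bst2 encodes tetherin, which holds budding virus particles at the cell surface. It rose 3.86-fold, from 15.8 to 61.1 FPKM, a log2 fold of 1.95 ± 0.22, and its adjusted p is listed as 0 in the authors' deposited table. Mx1, a dynamin-like GTPase, rose from 2.33 to 6.57 FPKM, a log2 fold of 1.5 ± 0.31, and Mx2, its neighbour, rose from 0.767 to 1.49 FPKM, 0.96 ± 0.30. These are low levels, and Mx2 had the lowest WT level of the 38 genes. Rsad2 encodes viperin, which makes a chain-terminating nucleotide. It had 30.2 and 28.0 FPKM, a log2 fold of -0.11 with a 95% interval from -0.48 to 0.26. Its neighbour Cmpk2, a nucleotide kinase, had 55.4 and 66.6 FPKM, a log2 fold of 0.26 ± 0.18. Isg20, an exonuclease, had 31.2 and 30.2 FPKM, a log2 fold of -0.05 ± 0.25. Samd9l had 114 and 85.4 FPKM, a log2 fold of -0.42 ± 0.19, with an adjusted p of 0.0678 in the authors' deposited table and 0.0274 with centred folds. With the length adjustment it had a log2 fold of -0.25 and an adjusted p of 0.326.

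Of the remaining 7 induced genes, 5 were called higher, among them the 2 with the largest log2 folds of the 38, Ifi44 and Lgals3bp, and the median log2 fold was 1.13. Ifi44 (chr3:151730923-151749959, - strand, 8 exons), a cytoplasmic interferon-induced protein, rose 8.71-fold, from 1.14 to 9.92 FPKM, a log2 fold of 3.12 ± 0.29. Lgals3bp, a secreted glycoprotein that binds galectin, rose 4.01-fold, from 5.62 to 22.5 FPKM, a log2 fold of 2.0 ± 0.21. Ifi27l2a, a small membrane protein, rose 2.91-fold, from 187 to 546 FPKM, a log2 fold of 1.54 ± 0.19. Ifi27l2a was thus both abundant and changed, whereas Ifi44 was near the bottom of the range in WT. The adjusted p in the authors' deposited table was 3.9e-14 for Ifi27l2a and is listed as 0 for Ifi44 and Lgals3bp. Xaf1, which binds the apoptosis inhibitor XIAP, rose from 5.84 to 12.8 FPKM, a log2 fold of 1.13 ± 0.21. Rtp4 rose from 58.2 to 85.8 FPKM, a log2 fold of 0.56 ± 0.19, a call that was also lost with the length adjustment (0.29, adjusted p of 0.228). Sp100, a nuclear body protein, had 145 and 119 FPKM (log2 fold -0.29 ± 0.18), and Ifi35 had 23.0 and 25.2 FPKM (0.13 ± 0.20).

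**Figure D3:**
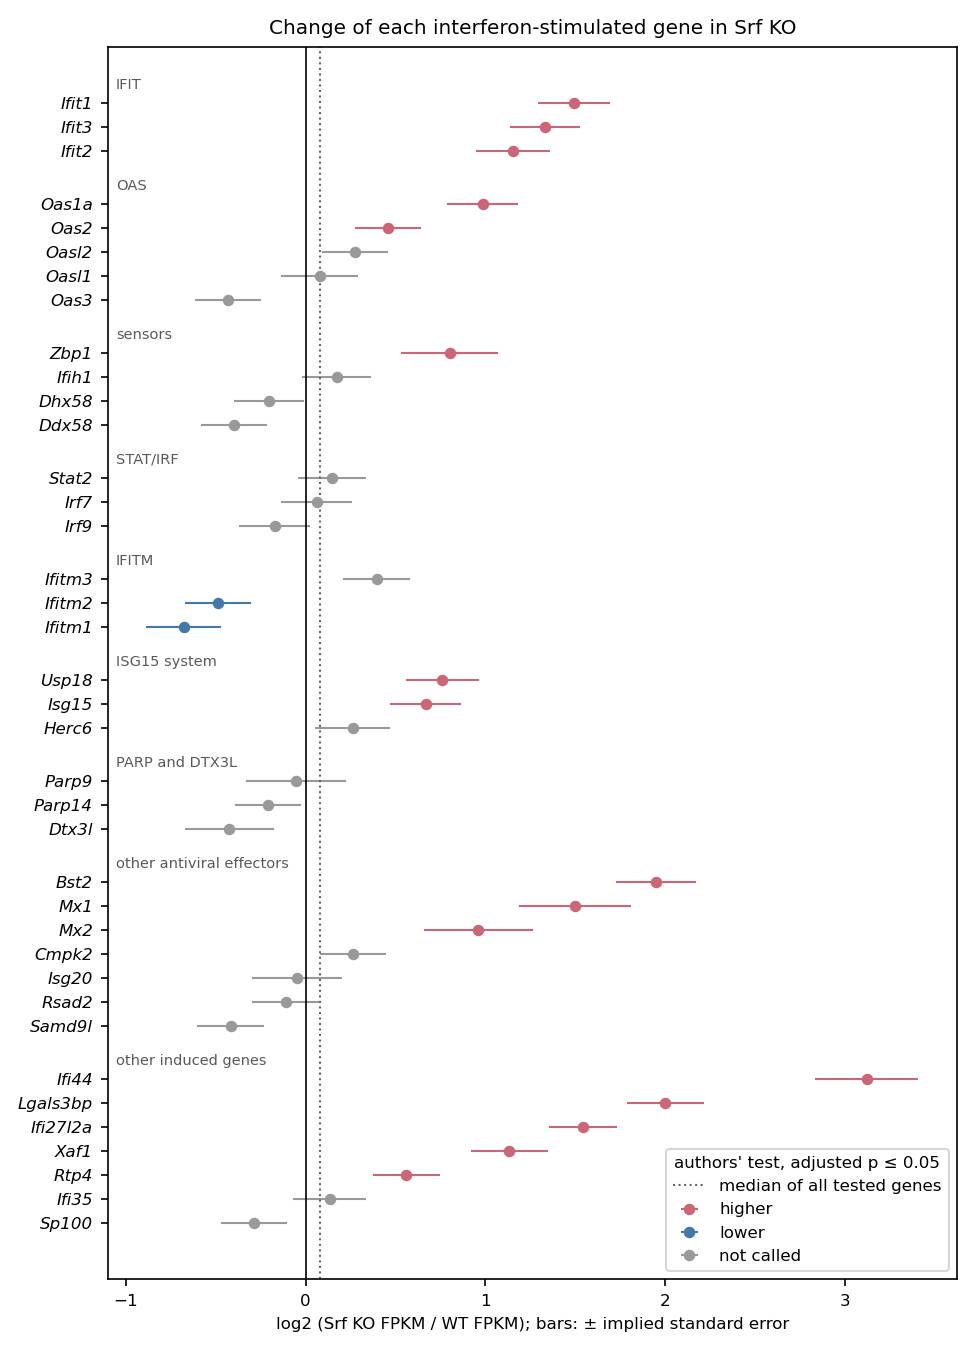
Log2 fold (Srf KO over WT) of each of the 38 genes by role, with bars of 1 implied standard error and colour for the authors' test at an adjusted p of at most 0.05. The IFIT genes lie together between 1.15 and 1.49, the OAS genes spread from -0.43 to 0.98, and the IFITM genes hold both lower calls; the dotted line is the median of all tested genes (0.08).

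The members that rose had a median WT level of 15.9 FPKM, and those not called one of 29.0 FPKM. Of the 10 members lowest in WT, from 0.767 to 10.9 FPKM, 7 rose and 0 fell, with a median log2 fold of 1.14. Of the 10 highest, from 58.2 to 981 FPKM, 2 rose and 2 fell, with a median of -0.23. The shares of all tested genes called in these ranges of WT level were not computed. The counts therefore cannot be read as a trait of the members. The rank correlation of WT level and log2 fold was -0.49 over the 38 genes and -0.29 over 10327 tested genes in the same range of WT levels. Both are descriptions across genes, and the WT value enters both axes.

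The ISRE letters were found in 5 of 9 members that rose and have a promoter in the table, and in 7 of the 19 other members. Ifit2, Ifi44, Lgals3bp and Xaf1 rose without a match in any of their promoter windows. The letters of the GAS, TTCNNNGAA, were found in 6 of the 28 genes (21.4%), against 9.55% of all genes with a promoter. Counted per promoter, the share was 8.30% of all promoters, whereas a gene counts if any of its promoters matches. The CArG box, the element bound by serum response factor, was searched as CC, then 6 bases of A or T, then GG. It was found in 0 of the 28 genes, against 1.81% of genes and 1.63% of promoters. With so low a share, 0 in a set of this size cannot be told from the background. These shares describe only the letters in 300 bases around each start.

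The tables also divide genes into groups of transcripts with a shared start site, and 5 members have several groups. Among tested start site groups of members, 11 of 35 were higher and 3 lower, against 15.1% and 16.1% of 13042 groups. These groups share the reads of their gene and are not independent of its value. The main group of Irf9 had 48.1 and 52.5 FPKM, a log2 fold of 0.13 ± 0.22. Its other group fell from 14.9 to 3.47 FPKM, a log2 fold of -2.10 ± 0.62 with an adjusted p of 0.00435 in the authors' deposited table. In GENCODE M21 the transcripts of that group start 594 and 1008 bases upstream. The farther of these starts lies outside the Irf9 locus given with the expression values. The share of Irf9 FPKM in the upstream group was 23.6% in WT and 6.20% in Srf KO, although the gene as a whole was not called. For Isg20, the group starting 470 bases upstream fell from 19.2 to 9.48 FPKM, a log2 fold of -1.02 ± 0.32 with an adjusted p of 0.00723 in the authors' deposited table. The downstream Isg20 group had 12.1 and 20.7 FPKM, a log2 fold of 0.78 ± 0.33, with an adjusted p of 0.0570 in the authors' deposited table. The upstream share of Isg20 was 61.4% in WT and 31.4% in Srf KO. The change in these shares was not tested.

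The features of Mx1, Ifitm1 and Zbp1 lay on 1 side of WT within each gene. The coding Mx1 group rose from 1.38 to 4.74 FPKM, a log2 fold of 1.77 ± 0.32, and the group annotated as non-coding had 0.945 and 1.84 FPKM, 0.96 ± 0.46. For Mx2 the coding isoform was at 0.137 FPKM in WT and is listed at 0 in Srf KO. The non-coding one was at 0.630 and 1.49 FPKM, and neither was tested. These Mx2 isoforms have 14 exons each and lengths of 2417 and 2421 bases, so at such levels their reads may not be told apart. The Ifitm1 groups had 198 and 124 FPKM and 21.6 and 14.0 FPKM, with log2 folds of -0.68 ± 0.34 and -0.63 ± 2.51, and neither was called. The Zbp1 isoforms had log2 folds of 0.75 ± 0.24, called higher, and 0.84 ± 0.36, not called. None of the 3 Irf7 isoforms was called.

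**Figure D4:**
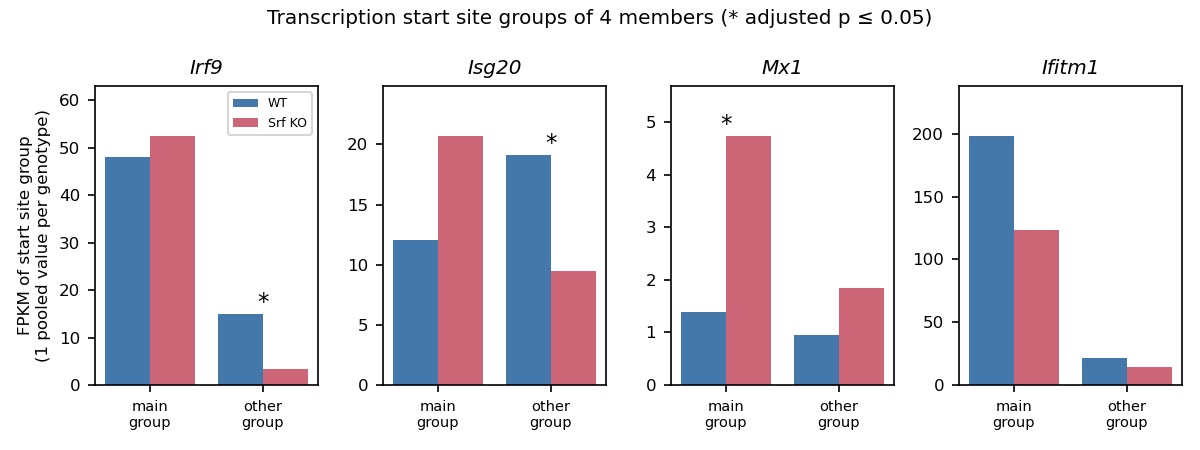
FPKM of the transcription start site groups of Irf9, Isg20, Mx1 and Ifitm1, 1 pooled value per genotype, with the group that has the larger Srf KO value on the left of each panel (main group) and asterisks at groups called by the authors' test. In Irf9 and Isg20 the other group is the one called lower, at 14.9 and 3.47 FPKM and at 19.2 and 9.48 FPKM.

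Upstream in the pathway, 0 of 11 tested genes for receptors, kinases and STATs rose and 6 fell (54.5%, against 17.8% of all tested genes), with a median log2 fold of -0.49. These genes had 11.8 FPKM or more in WT, and of genes at 5 FPKM or more in either genotype 26.45% were called lower. Ifnar1, a chain of the type I receptor, fell from 21.0 to 12.4 FPKM (log2 fold -0.76 ± 0.18), and Ifnar2, the other chain, had 64.0 and 54.0 FPKM (-0.24 ± 0.25). The type II receptor genes Ifngr1 and Ifngr2 were not called, with log2 folds of 0.03 ± 0.18 and -0.35 ± 0.18. Jak1, the kinase shared by both receptors, fell from 113 to 52.3 FPKM, a log2 fold of -1.11 ± 0.19, and Tyk2 had 11.8 and 9.43 FPKM, -0.33 ± 0.19. Jak1 and Ifnar1 thus fell in the samples in which the IFIT genes rose.

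Of the interferon genes themselves, Ifng was the 1 tested gene of 12 listed, at 0.0690 and 0.468 FPKM, a log2 fold of 2.76 ± 0.96 and called higher. It is named after its values were seen. Ifnb1, Ifna1 and Ifna5 are listed at 0 in WT and at 0.0167, 0.0129 and 0.0401 FPKM in Srf KO, with no test. Ifna2, Ifna4, Ifne, Ifnk, Il28a and Il28b, also without a test, are listed at 0 in both genotypes. All of these untested genes are named after their values were seen. Among 14 tested genes of nucleic acid sensing, 1 rose (7.14%) and 4 fell (28.6%), against 17.7% and 17.8% of all tested genes. Their median WT level was 10.3 FPKM, and the share that fell is near the 26.45% of genes at 5 FPKM or more. Tlr8, an endosomal RNA receptor, fell from 22.1 to 4.2 FPKM, a log2 fold of -2.40 ± 0.21, and Zc3hav1, an RNA-binding antiviral protein, fell from 37.5 to 22.5 FPKM, -0.74 ± 0.20. Tlr3 was the 1 gene that rose, from 0.0632 to 0.248 FPKM, and is also named after its values were seen.

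Of 6 other IRF genes, 2 rose (33.3%) and 1 fell (16.7%), against 17.7% and 17.8% of all tested genes. Irf8 rose from 17.8 to 30.7 FPKM, a log2 fold of 0.79 ± 0.19, and Irf4 rose from 2.28 to 3.84 FPKM, 0.75 ± 0.24. Irf2 fell from 56.9 to 35.5 FPKM, a log2 fold of -0.68 ± 0.18. Irf1 and Irf3 were not called, both with a log2 fold of -0.49. Of 8 feedback inhibitors, 1 rose (12.5%) and 5 fell (62.5%), against the same shares. Their median WT level was 19.3 FPKM, and of genes at 5 FPKM or more 26.45% were called lower. Socs1, an inhibitor of Janus kinases, rose from 0.851 to 2.46 FPKM, a log2 fold of 1.53 ± 0.35. Socs3 fell from 15.8 to 6.01 FPKM, -1.40 ± 0.21, and Pias4 fell from 12.1 to 5.34 FPKM, -1.18 ± 0.24.

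A further 59 tested interferon-stimulated genes outside the 38 gave 21 higher (35.6%) and 8 lower (13.6%), against 17.7% and 17.8% of all tested genes. Their median log2 fold was 0.33, against 0.08 over all tested genes. Cxcl9, a chemokine induced by interferon gamma, rose from 0.654 to 3.45 FPKM, a log2 fold of 2.40 ± 0.31. Ddx60, a helicase, fell from 21.9 to 11 FPKM, -0.99 ± 0.19, and Xrn1, an exonuclease, fell from 4.23 to 2.23 FPKM, -0.92 ± 0.22. This list was also drawn up with earlier results of these data known.

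**Figure D5:**
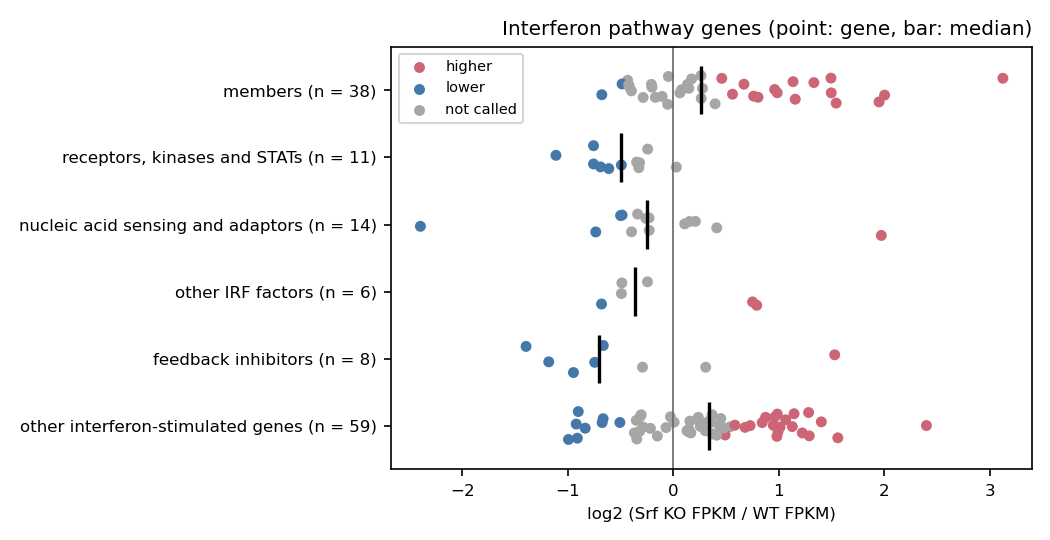
Log2 fold (Srf KO over WT) of each tested gene of the 38 members and of the other pathway lists, with 1 point per gene, the median as a bar and colour for the authors' call. The member median is 0.26, that of receptors, kinases and STATs -0.49 and that of the other interferon-stimulated genes 0.33.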

How the data were processed

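RNA of 2 WT and 2 Srf KO samples of sorted neutrophils was sequenced from TruSeq RNA v2 libraries, per the labels' protocols. Per the submitters' processing notes, CASAVA 1.8.1, TopHat2 2.0.0 and Cufflinks 2.0.0 were used with mm10; settings are not given in the sources used here. The tables for genes, isoforms, start site groups and coding sequences hold FPKM values as the authors deposited them, 1 per genotype. Each row also carries the authors' test statistic, a score, with its p-value and q-value. No per-sample value entered, so depth per sample is unknown and the tests meant for such values were replaced by the authors' own.

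Log2 folds were computed from FPKM as Srf KO over WT with no pseudocount, and the standard error is the absolute log2 fold over the absolute statistic. It was checked that the log2 fold, the normal p and its Benjamini-Hochberg adjustment match the authors' columns within 1.34e-05, 2.75e-06 and 1.36e-06, with 0 calls differing. Recomputed adjusted p-values used these errors and were tested on simulated data. Intervals are the log2 fold ± 1.96 standard errors, unadjusted.

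The members and all lists were chosen with earlier results of these data known. Named genes are every member, Srf, 12 fixed pathway genes, up to 2 called genes per pathway list and direction with the largest fold at 1 FPKM or more, and the 2 most abundant tested markers per cell type. The result of 1 gene that this rule picks is not reported here, though the gene is included in the counts. Positions in the tables are mm10, with starts printed counting from 1. Exons and strand come from GENCODE M21 and promoters from RefSeq (GRCm38.p6). Alternatives were an adjusted p of 0.01, a 2-fold minimum, filters at 1 and 5 FPKM, pseudocounts of 1 and 0.1, centred folds, folds adjusted for the running median over transcript length in 50 bins (for single genes added after seeing the data), genes at a shared locus left out, and other feature tables. Software was scipy 1.17.1, pandas 2.3.3, numpy 2.4.6 and matplotlib 3.10.9 under Python 3.11.15.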

Additional observations from a re-analysis of the deposited data

How the results depend on the processing

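The number of members called higher was 16 and lay between 13 and 16 under the gene-level alternatives other than a 2-fold minimum, which left 9 higher, 0 lower and 1720 of all tested genes called. The share of all genes called higher moved as well, from 17.7% to 10.8% at an adjusted p of 0.01 and to 14.5% with centred folds. Start site groups are another unit, with 11 of 35 tested groups higher, against 15.1% of groups. The number called lower was 2, against 17.8% of all tested genes. It became 1 at an adjusted p of 0.01, against 13.1% of genes. With folds centred on the median of all tested genes, 0.08, it became 5, against 20.5% of genes. Centring added Oas3, Ddx58 and Samd9l (log2 fold -0.50) to the lower calls, and Oas2 (0.38) was lost from the higher calls. The member median lay between 0.18 and 0.28. Adjustment for transcript length left 13 higher calls and 2 lower calls, against 14.2% and 19.0% of genes. The higher calls of Zbp1 (log2 fold 0.45, adjusted p of 0.198), Isg15 and Rtp4 (0.29, adjusted p of 0.228) were lost. The same adjustment brought the IFITM median to -0.84 and the ISG15 system median to 0.40, and turned the STAT and IRF median to -0.15. A filter at 1 FPKM gave 3 lower calls, against 20.9% of genes. On the log2(FPKM + 1) scale Ifi44 had 2.35 and Mx2 0.50. The most abundant isoform gave 0.13 for Irf9 and 0.78 for Isg20.

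No paired analysis was possible because the tables hold 1 value per genotype, and for the same reason no sample was left out in turn. Mx2 gave no value from summed coding sequences. Depth is unknown, so no limit from counting can be given for genes listed at 0.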
